A study of Homo sapiens with 6 samples.

Results

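The zinc finger genes at 19q13.41 form an array on the long arm of chromosome 19, and 38 of them are described here among the 62703 genes of the deposited table. They were chosen by name and position with the contrast between the genotypes of this series already known, so their counts, TPM values and fold changes are given as a description. Calls from the fit over all genes say which members passed its limits and are not a test of the members as a group. On the hg38 build the 38 members span chr19:51804816-53580269, or 1.78 Mb, with 16 on the plus strand and 22 on the minus strand. The deposited domain annotation gives 36 of them a KRAB box, and lists none for ZNF83 and the pseudogene ZNF702P.

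KRAB zinc finger proteins bind DNA through arrays of C2H2 zinc fingers, and their KRAB box recruits the corepressor TRIM28 and the histone methyltransferase SETDB1, which place repressive H3K9 methylation. Many of these proteins bind transposable elements. Their genes arose by tandem duplication, lie side by side on chromosome 19 and are themselves often covered by H3K9 methylation, so whether neighbours change together is a natural question for such an array.

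PANC-1 is a human cell line derived from a pancreatic ductal adenocarcinoma, and its RNA was profiled by stranded RNA-seq. The DKK1-SE-/- cells carry a homozygous CRISPR/Cas9 deletion of e1, a component enhancer of the DKK1 super-enhancer. The DKK1-SE+/+ cells are PANC-1 cells labelled WT, and whether they went through the same transfection and cloning is not stated. Each group has 3 samples labelled as biological replicates. The study obtained 1 homozygous clone, so the 3 DKK1-SE-/- replicates are samples of that clone, and an effect of the deletion and a property of the clone cannot be told apart. Total expected counts were 21822314, 16475810 and 18803154 for DKK1-SE+/+ replicates 1, 2 and 3. The DKK1-SE-/- libraries held 17359835, 20098086 and 17804764, and sample values are given in this replicate order throughout.

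DKK1, the secreted Wnt antagonist whose enhancer was deleted, had TPM values, which are scaled to transcript length and library, of 229.21, 245.8 and 198.53 in the DKK1-SE+/+ samples and 66.75, 79.75 and 82.66 in the DKK1-SE-/- samples. The groups did not overlap, and DKK1 was lower in 3 of 3 DKK1-SE-/- samples (log2 fold change -1.45, edgeR adjusted p = 6.16e-06). The two-sided exact permutation test of TPM gave p = 0.1, the smallest that 3 samples against 3 allow. The 6 genes listed as markers of this cell line, KRT8, KRT18, KRT19, VIM, SOX9 and GATA6, were all detected. The 8 markers of other cell types (PTPRC, CD3E, PECAM1, VWF, PDGFRB, LUM, INS and PRSS1) did not reach the count filter, and INS had no count in any sample. Of the 6 genes listed for this cell line, KRT19 was called higher (log2 fold change 1.83), and KRT8 and KRT18 were higher without the fold limit (0.86 and 0.67). VIM and SOX9 were lower without it (-0.47 and -0.39), and GATA6 did not pass (0.40). In bulk RNA, fewer cells that express a gene and less RNA per cell cannot be told apart.

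Of the 38 members, 35 passed the filter on low counts. ZNF577, ZNF649, ZNF880 and ZNF528 met the minimum in the DKK1-SE-/- samples only, so these 4 could be fitted only because they were high there. ZNF610, ZNF534 and ZNF415 were not fitted. A gene was called when edgeR's Benjamini-Hochberg adjusted p over all fitted genes was under 0.05 and the absolute log2 fold change was at least 1.2. By this rule 6 members were called higher in DKK1-SE-/- cells, where 4.76% of all 15179 fitted genes were called higher, and 0 were called lower, where 3.60% of all fitted genes were. DESeq2 also called 6 higher and 0 lower. Limma with a trend on log2(TPM + 1), which compresses low values, called 2 higher and 0 lower, with log2 differences of 0.66 for ZNF577, 0.80 for ZNF649, 0.77 for ZNF701 and 1.04 for ZNF665, below the fold limit. In edgeR, 2 members were lower at an unadjusted p under 0.05, beside 3577 of all 15179 fitted genes. Of the 31 members that met the minimum count in both groups, 2 were called higher, ZNF701 and ZNF665, and the other 4 calls are of members fitted through the DKK1-SE-/- samples alone and are no support. Since this contrast was known when the members were named, nothing is read from these percentages.

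**Figure D1:**
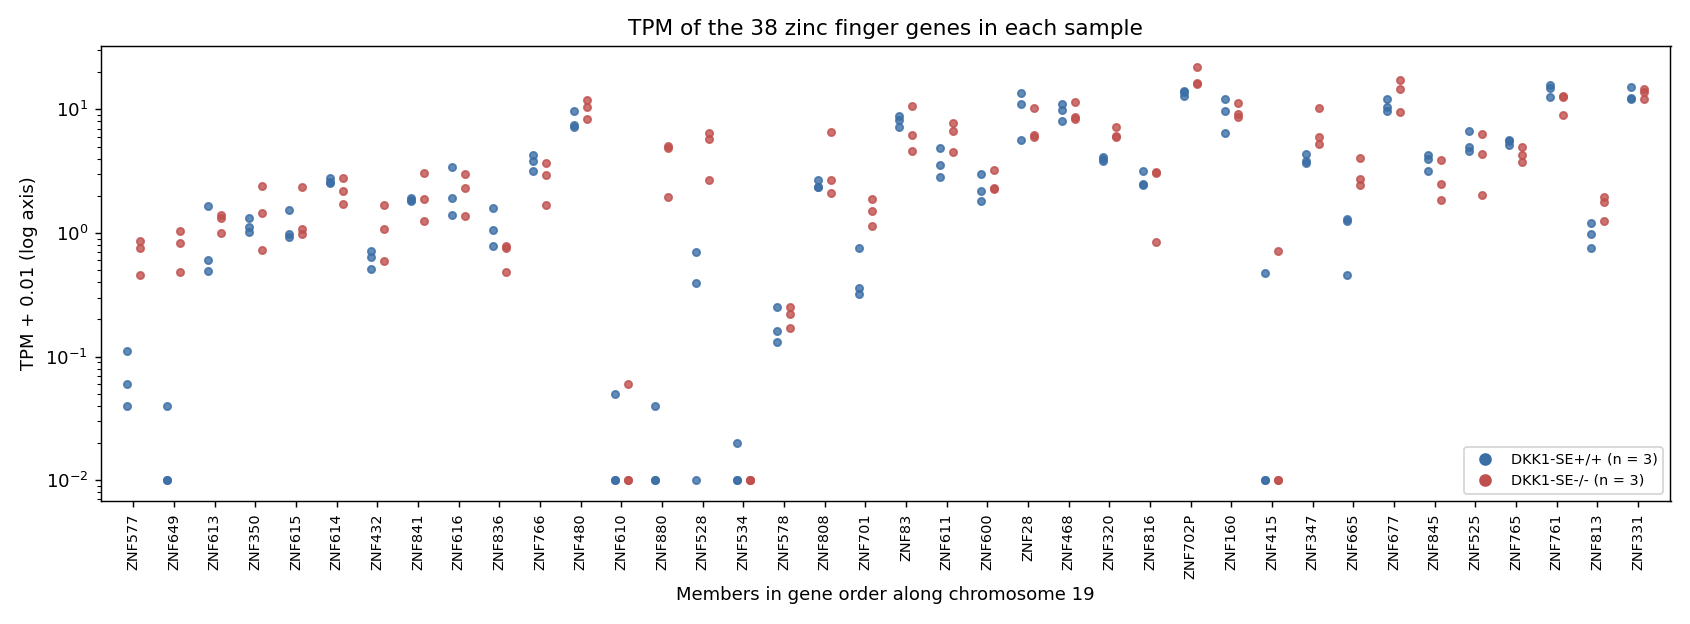
TPM + 0.01 on a log axis for each of the 38 members in gene order, with a point for each of the 3 DKK1-SE+/+ samples (blue) and the 3 DKK1-SE-/- samples (red). ZNF649 and ZNF880 lie at or near the bottom of the axis in the blue samples, ZNF577 at up to 0.1 TPM and ZNF528 at 0 to 0.69 TPM, and in all 4 every red point is above every blue point.

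The first called members lie at the centromeric end of the array, where ZNF577 and ZNF649, both on the minus strand, overlap and have starts 14.1 kb apart. ZNF577 had expected counts of 12.48, 4.44 and 3.3 in the DKK1-SE+/+ samples and of 26, 35 and 44.93 in the DKK1-SE-/- samples. ZNF649 had 1, 0 and 0 counts in the DKK1-SE+/+ samples and 20, 38 and 31 in the DKK1-SE-/- samples. For both genes every DKK1-SE-/- sample was above every DKK1-SE+/+ sample. For ZNF577 the fitted log2 fold change was 2.60, with a standard error of 0.45. For ZNF649, with a DKK1-SE+/+ total of 1 count, the ratio of library-scaled totals was 96.7, with a 95% Clopper-Pearson interval of 16.9 to 3862 that covers counting error only. Because ZNF577 and ZNF649 share a stretch on the same strand, how their reads were divided is uncertain.

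The next called members, ZNF880 and ZNF528, lie 465 kb further along, on the plus strand with starts 27.9 kb apart. ZNF880 had 1, 0 and 0 counts in the DKK1-SE+/+ samples and 20, 45 and 38 in the DKK1-SE-/- samples. ZNF528 had 5, 2 and 0 counts in the DKK1-SE+/+ samples and 38, 95 and 85 in the DKK1-SE-/- samples. For both genes every DKK1-SE-/- sample was above every DKK1-SE+/+ sample, and DKK1-SE-/- replicate 1 was the lowest of its group. The ratio of totals was 112 for ZNF880 (95% Clopper-Pearson interval 19.6 to 4463) and 33.8 for ZNF528 (16.1 to 85.2). These intervals also cover counting error only, not the spread between replicates. Most of the few DKK1-SE+/+ counts of these members came from replicate 1, and without it the fitted log2 fold change moved from 4.99 to 5.95 for ZNF528, from 6.32 to 8.07 for ZNF880, from 6.12 to 7.87 for ZNF649 and from 2.60 to 3.25 for ZNF577. Members on either side of this pair were nearly silent in both genotypes. ZNF610, whose start is 33.7 kb from that of ZNF880, had 1, 0 and 0 counts in the DKK1-SE+/+ samples and 1, 0 and 0 in the DKK1-SE-/- samples. ZNF534, whose start is 31.3 kb from that of ZNF528, had 1 count in DKK1-SE+/+ replicate 3 and 0 in the other samples. ZNF415, which lies between ZNF160 and ZNF347 and was not fitted either, had 0, 2 and 0 counts in the DKK1-SE+/+ samples and 0, 4 and 0 in the DKK1-SE-/- samples. No difference was detectable for these 3 genes at this depth.

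Promoter sequences were taken from RefSeq (GRCh38.p14), in which 31 of the 38 members matched. ZNF649, ZNF480, ZNF610, ZNF600, ZNF28, ZNF702P and ZNF665 did not match. The 250 bases before the start are shown for 3 members that differed between the genotypes and for 2 that stayed at or near 0 counts in both, with each CG dinucleotide, the site of DNA methylation, in capitals. RefSeq starts can differ from the GENCODE starts used for distances and overlaps, and by GENCODE the ZNF577 window and most of the ZNF415 window lie within the gene. The windows are chr19:51887952-51888201 (minus strand) for ZNF577, chr19:52369673-52369922 (plus) for ZNF880, chr19:52397599-52397848 (plus) for ZNF528, chr19:52428898-52429147 (plus) for ZNF534 and chr19:53132911-53133160 (minus) for ZNF415.
ZNF577: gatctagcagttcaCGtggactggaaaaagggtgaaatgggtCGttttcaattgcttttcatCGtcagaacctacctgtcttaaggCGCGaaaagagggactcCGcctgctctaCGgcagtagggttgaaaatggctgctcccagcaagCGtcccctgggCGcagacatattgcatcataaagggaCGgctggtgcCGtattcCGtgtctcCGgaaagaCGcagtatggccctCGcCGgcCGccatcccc
ZNF880: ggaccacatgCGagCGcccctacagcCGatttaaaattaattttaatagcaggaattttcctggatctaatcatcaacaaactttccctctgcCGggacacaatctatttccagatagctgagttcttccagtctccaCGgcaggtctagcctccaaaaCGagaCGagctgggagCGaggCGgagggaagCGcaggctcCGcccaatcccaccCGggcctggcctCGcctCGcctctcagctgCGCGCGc
ZNF528: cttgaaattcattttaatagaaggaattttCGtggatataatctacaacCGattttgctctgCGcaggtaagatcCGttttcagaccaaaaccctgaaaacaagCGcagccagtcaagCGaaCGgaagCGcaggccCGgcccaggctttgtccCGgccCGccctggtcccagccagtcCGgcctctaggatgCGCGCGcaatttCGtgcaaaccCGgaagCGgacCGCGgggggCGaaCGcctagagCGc
ZNF534: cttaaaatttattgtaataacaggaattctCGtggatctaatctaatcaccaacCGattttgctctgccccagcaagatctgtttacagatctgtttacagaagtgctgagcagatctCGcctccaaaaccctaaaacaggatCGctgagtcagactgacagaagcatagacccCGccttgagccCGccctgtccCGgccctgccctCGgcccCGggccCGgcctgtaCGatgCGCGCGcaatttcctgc
ZNF415: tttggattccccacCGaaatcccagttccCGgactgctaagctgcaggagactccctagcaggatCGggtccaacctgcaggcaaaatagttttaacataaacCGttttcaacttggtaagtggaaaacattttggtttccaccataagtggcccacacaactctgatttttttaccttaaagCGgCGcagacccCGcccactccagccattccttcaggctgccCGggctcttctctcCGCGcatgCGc

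The windows of ZNF577 and ZNF880 hold 17 CG each, that of ZNF528 holds 23, that of ZNF534 holds 14 and that of ZNF415 holds 11. Of all 35116 promoter windows of the same length, 93.9% hold a CG and the median is 11, while the first listed windows of the 31 members hold 10 to 28 with a median of 18. No comparison of CG content between called and silent members was made. The AP-1 motif TGANTCA, which reads the same on both strands, was found in 8 of the 44 windows of the members (18.2%) and in 6.57% of all windows. The members with a match were ZNF331, ZNF525, ZNF534, ZNF578, ZNF765, ZNF83 and ZNF845. Of these, ZNF534 was not fitted and the others were not called, and the called members ZNF649 and ZNF665 had no window to search. A match is a description of these letters only.

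The remaining called members stand alone in gene order and were already expressed in DKK1-SE+/+ cells. ZNF701 had expected counts of 64, 22 and 22.64 in the DKK1-SE+/+ samples and 81, 120.05 and 123.21 in the DKK1-SE-/- samples. ZNF665 had 38.08, 20 and 21.31 in the DKK1-SE+/+ samples and 65, 69 and 77.33 in the DKK1-SE-/- samples. For both genes the groups did not overlap, and DKK1-SE+/+ replicate 1, the largest library, had the highest expected count of its group. In TPM, the DKK1-SE+/+ values were 0.74, 0.35 and 0.31 for ZNF701 and 1.23, 0.45 and 1.29 for ZNF665. Fitted log2 fold changes were 1.72 for ZNF701 (standard error 0.31) and 1.55 for ZNF665 (0.26). ZNF701 overlaps ZNF808 on the same strand, so the division of reads between them is uncertain.

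Members beside the called stretches, by definition not called, had smaller fitted differences. ZNF613, beside ZNF649, had 23, 20 and 22 counts in the DKK1-SE+/+ samples and 25, 39 and 50 in the DKK1-SE-/- samples, with a fitted log2 difference of 0.91 (standard error 0.32). ZNF480, the nearest fitted member before ZNF880, had a log2 fold change of -0.33 (0.20), and ZNF578, the nearest after ZNF528, of 0.41 (0.38). For ZNF480 the value was 0.18 with an offset for GC content and 0.30 with limma on log2(TPM + 1), so its sign depends on these choices. Around ZNF701, the log2 fold change was 0.66 (0.22) for ZNF808 and -0.33 (0.18) for ZNF83. Around ZNF665, it was 0.67 (0.17) for ZNF347 and 0.54 (0.14) for ZNF677. None of these 7 passed the fold limit, and 4 of them, ZNF613, ZNF808, ZNF347 and ZNF677, are among the members that were higher when only the adjusted p was used.

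The members with the highest TPM in DKK1-SE+/+ cells were not called. ZNF761 had TPM values of 14.79, 15.82 and 12.66 in the DKK1-SE+/+ samples and 8.93, 12.66 and 12.88 in the DKK1-SE-/- samples, with a fitted log2 difference of -0.45 (standard error 0.14). The pseudogene ZNF702P had 14.18, 12.84 and 13.78 TPM in the DKK1-SE+/+ samples and 16.46, 16.07 and 22.18 in the DKK1-SE-/- samples. ZNF331, an imprinted gene at the telomeric end of the array, had 12.18, 15.05 and 12.29 TPM in the DKK1-SE+/+ samples and 12.03, 13.85 and 14.69 in the DKK1-SE-/- samples. The groups overlapped for ZNF761 and ZNF331, and ZNF702P did not overlap on the TPM scale while its log2 fold change from counts was 0.15 (0.13). ZNF677 and ZNF28 were the other members among the 5 most abundant, and ZNF28 had a log2 fold change of -0.28 (0.18).

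Over the 35 fitted members the log2 fold change ranged from -0.62 to 6.32, the fitted value of ZNF880 with its 1 count in DKK1-SE+/+ cells, with a median of 0.16, beside a median of 0.03 over all fitted genes. The median of the members was -0.02 without DKK1-SE-/- replicate 3 and 0.46 with an offset for GC content, so its sign and size depend on these choices. Without the fold limit, 14 members had an adjusted p under 0.05 in edgeR and were higher (19.8% of all fitted genes were), and 2, ZNF525 and ZNF761, were lower (19.5% of all fitted genes were). Of the 31 members that met the minimum count in both groups, 10 were higher by this limit. With the offset for GC content the log2 fold change moved from -0.62 to -0.19 for ZNF525 and from -0.45 to -0.09 for ZNF761. TPM values did not overlap between the groups for 10 fitted members that were higher in DKK1-SE-/- cells (17.5% of all fitted genes) and for ZNF765, which was lower (26.7% of all fitted genes). Among the 31 members that met the minimum count in both groups, 6 were higher without overlap. At most 3 counts in each DKK1-SE+/+ sample with at least 10 in each DKK1-SE-/- sample, limits set after the values were seen, held for 2 members, ZNF649 and ZNF880, and for 90 of all listed genes (0.144%). These members were selected on the same contrast, so the shares describe them only.

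In gene order the 6 called members fell into 4 stretches, separated by stretches of 10, 2 and 10 members that were not called and followed by a stretch of 7. Among the 34 pairs of consecutive fitted members, 2 pairs had both members called, 7 had 1 called and 25 had neither. The log2 fold changes of consecutive members had a Spearman's rho of 0.23 (34 pairs, across genes of the same libraries that are not independent replicates). The median absolute difference was 0.78 between consecutive members and 0.83 over all 595 pairs of members. Both pairs, ZNF577 with ZNF649 and ZNF880 with ZNF528, consist of members fitted through the DKK1-SE-/- samples alone. These values describe the order of the calls, and whether neighbours change together more than other members was not tested.

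**Figure D2:**
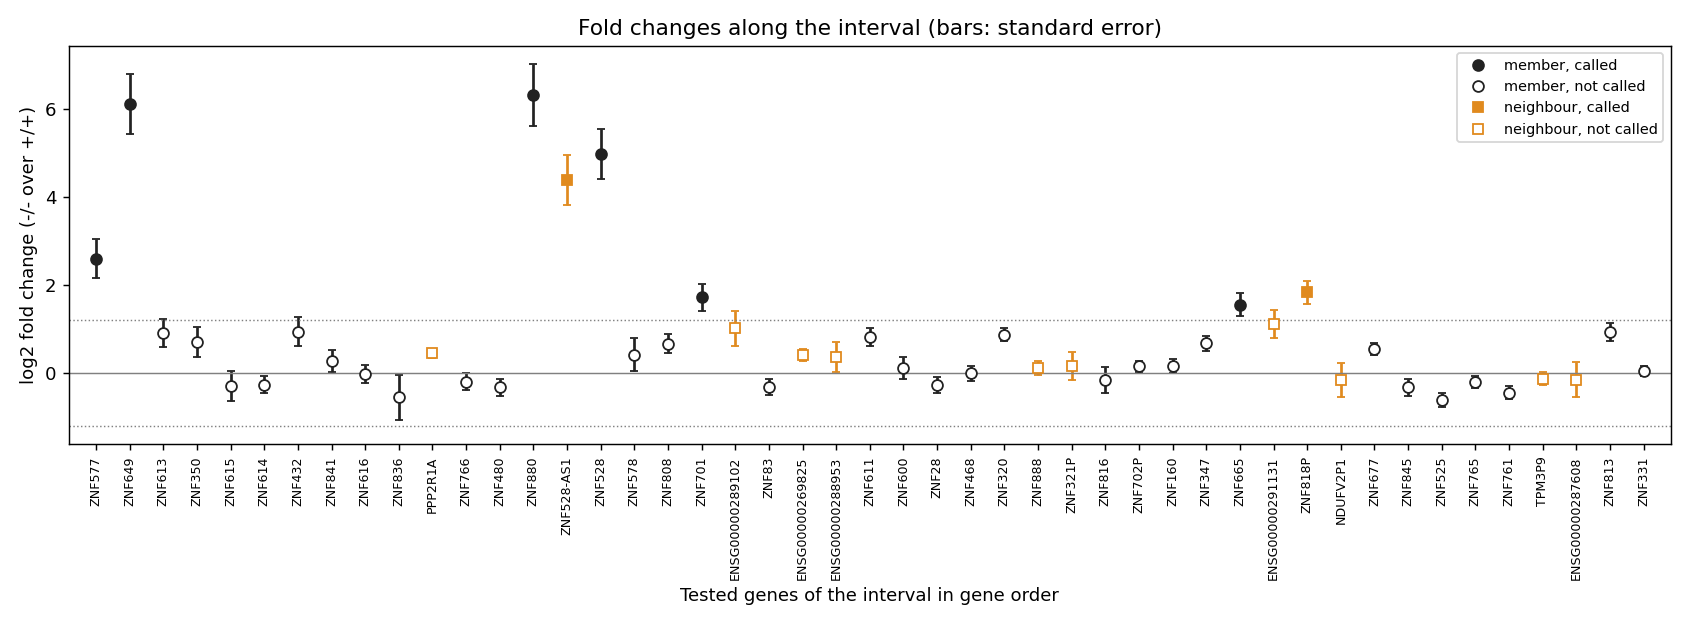
Log2 fold change (DKK1-SE-/- over DKK1-SE+/+) with its standard error for the 35 fitted members (circles) and 12 fitted neighbours (squares) in gene order. Filled symbols were called and dotted lines mark the fold limit of 1.2. The filled circles stand at 4 places in the order of the members, and the filled squares are ZNF528-AS1, between ZNF880 and ZNF528, and ZNF818P, which an open square separates from ZNF665.

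The interval holds 69 other listed genes, taken by position alone, of which 12 passed the count filter. Of these 12, 2 were called higher (16.7%) and 0 lower in edgeR, beside 4.76% and 3.60% of all fitted genes. At an unadjusted p under 0.05 in edgeR, 0 of the 12 were lower, beside 3577 of all 15179 fitted genes. DESeq2 called 0 of them lower. Of the 2 called higher, ZNF528-AS1 met the minimum count in the DKK1-SE-/- samples only, so its call is no support. The long non-coding RNA ZNF528-AS1, which starts 58 bp from ZNF528 and runs the other way, had 2, 0 and 2 counts in the DKK1-SE+/+ samples and 23, 33 and 28 in the DKK1-SE-/- samples. As for ZNF528, every DKK1-SE-/- sample was above every DKK1-SE+/+ sample. The ratio of library-scaled totals was 22.8 (95% Clopper-Pearson interval 8.59 to 85.7, for counting error only). The pseudogene ZNF818P, which starts 10.6 kb from ZNF665 on the other strand, had expected counts of 58.54, 23.44 and 29.69 in the DKK1-SE+/+ samples and 101.1, 116.88 and 140.55 in the DKK1-SE-/- samples. It rose with a log2 fold change of 1.83 (standard error 0.26, adjusted p = 3.72e-04 by edgeR with Benjamini-Hochberg adjustment), higher in 3 of 3 DKK1-SE-/- samples. It overlaps the long non-coding gene ENSG00000291131 on the same strand, with which its reads may be shared. ENSG00000291131 had expected counts of 29.46, 43.56 and 22.31 in the DKK1-SE+/+ samples and 53.9, 68.11 and 73.45 in the DKK1-SE-/- samples. Its groups did not overlap, and its log2 difference of 1.12 (adjusted p = 0.017 in the same edgeR test) was below the fold limit, while with the offset for GC content it was 1.49 and called. With limma on log2(TPM + 1), where low values are compressed, the log2 differences of 1.03 for ZNF528-AS1 and 0.96 for ZNF818P were below the fold limit, and ENSG00000291131 was the neighbour called (1.37).

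Among the fitted neighbours the most abundant was PPP2R1A, the scaffold subunit of protein phosphatase 2A, which is not a zinc finger gene. Its TPM was 71.1, 79.55 and 81.24 in the DKK1-SE+/+ samples and 105.25, 86.13 and 94.12 in the DKK1-SE-/- samples. Its fitted log2 difference was 0.44 (standard error 0.11, adjusted p = 0.0106 by edgeR with Benjamini-Hochberg adjustment), below the fold limit. The tropomyosin pseudogene TPM3P9, which overlaps ZNF761 on the same strand, differed by -0.13 on the log2 scale (standard error 0.14). ENSG00000269825, the other of the 3 most abundant fitted neighbours, overlaps ZNF83 and differed by 0.41 (standard error 0.14, adjusted p = 0.0428 in the same edgeR test). It has no ZNF symbol, but the deposited domain annotation gives it a KRAB box and zinc fingers. Within 2 Mb of the interval on either side, the 74 fitted genes with no ZNF symbol had a median of 0.27 in log2 fold change, and the 895 such genes of the whole chromosome one of 0.24. With an offset for GC content these medians were 0.04 and 0.07, so they were above that of the members (0.16) without the offset and below it (0.46) with it. In edgeR without the offset, 7 of the 74 genes were called higher (9.46%) and 0 lower. Of the 895 genes, 42 were called higher (4.69%) and 14 lower (1.56%). With the offset 5 and 32 were called higher.

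Zinc finger genes outside the interval were described in the same way. Of the 178 fitted ZNF genes of chromosome 19 outside it, 16 were called higher (8.99%) and 0 lower in edgeR. Of all fitted genes, 4.76% were called higher and 3.60% lower. At an unadjusted p under 0.05 in edgeR, 16 of the 178 were lower, beside 3577 of all 15179 fitted genes. DESeq2 called 0 of the 178 lower. Their median log2 fold change was 0.17. With the offset for GC content, 24 were called higher and the median was 0.30. With the 3 fitted ZNF genes that lie between the members, ZNF818P among them, the counts were 17 of 181 (9.39%). Of the 210 fitted ZNF genes on other chromosomes, 6 were called higher (2.86%) and 5 lower (2.38%), with a median of 0.04. With the offset 8 of them were called higher and 2 lower, and the median was 0.18. With gaps of at most 500 kb, the ZNF genes of chromosome 19 outside the interval formed 21 runs, and 6 of them held a gene called higher. The run from ZNF101 to ZNF254 held 8 of the 16 among its 26 fitted genes, and the run from ZNF264 to ZNF446, with 40 fitted genes, held 1. The differences between these groups of genes were not tested.

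Replicates of the DKK1-SE-/- group differed from each other over most of the array. DKK1-SE-/- replicate 1 had the lowest TMM-scaled value of its group for 30 of the 35 fitted members (85.7%), against 39.2% of all fitted genes. The median log2 deviation of the members from their group mean was -0.29, 0.01 and 0.28 in the DKK1-SE-/- samples and 0.06, -0.01 and -0.10 in the DKK1-SE+/+ samples. The transcripts of the members are poor in G and C, with a median GC content of 41.4% beside 48.2% over all fitted genes. Of the 3852 fitted genes with 38 to 44% GC, 71.4% were lowest in DKK1-SE-/- replicate 1. After an offset for GC content was fitted in every library, that replicate was lowest for 19 of the 35 members (54.3%), beside 21.6% of all fitted genes and 26.5% of those with 38 to 44% GC, and the members' median deviations were -0.07, -0.01 and 0.09 in the DKK1-SE-/- samples, beside 0.06, -0.01 and -0.04 over all fitted genes. With the same offset 8 members were called higher, the 6 above with ZNF432 and ZNF813, beside 707 of all 15179 fitted genes. Of the 31 members that met the minimum count in both groups, 4 were called higher with this offset. The median log2 fold change of the members was then 0.46, beside 0.08 over all fitted genes. The part of GC content and of this replicate in the calls above was not tested further.

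**Figure D3:**
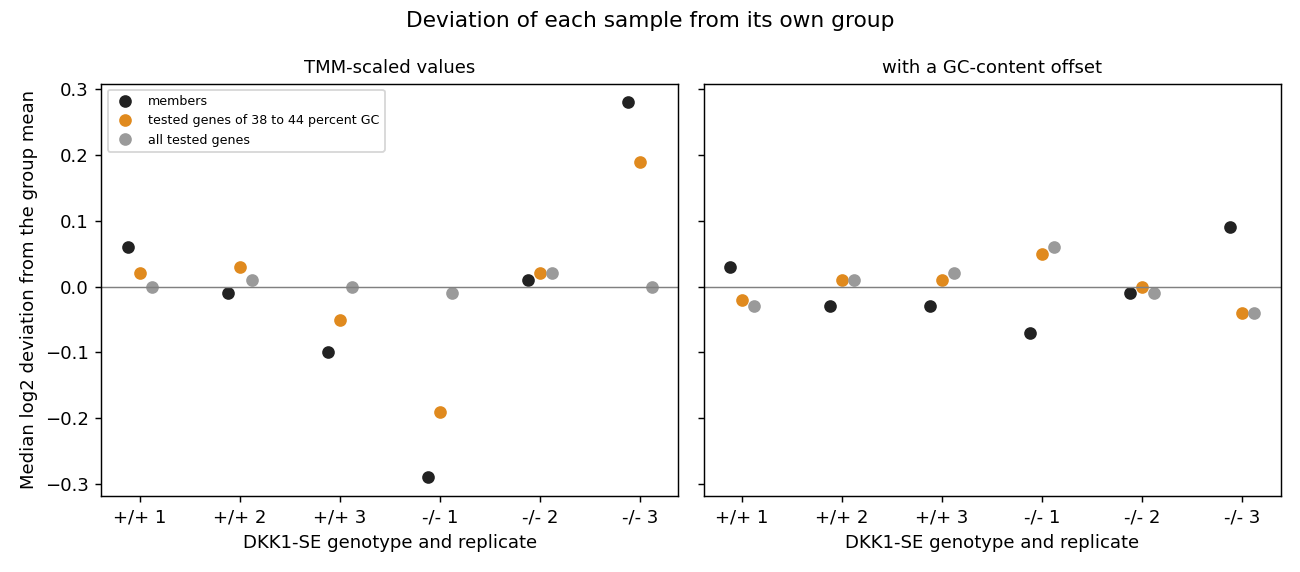
Median log2 deviation of each sample from its own group mean over the 35 fitted members (black), the fitted genes with 38 to 44% GC (orange) and all fitted genes (grey), for TMM-scaled values and with a GC-content offset. On the left the members lie at -0.29 in DKK1-SE-/- replicate 1 and 0.28 in replicate 3, and on the right at -0.07 and 0.09.

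Genes of the machinery that KRAB zinc finger proteins use, and that acts on zinc finger genes, were examined as a list. Of the 26 symbols on the list of KRAB corepressor and H3K9 heterochromatin genes, 25 matched a gene and were fitted, and 1 of these was called. ATRX, a chromatin remodeller that works with DAXX, had TPM values of 14.79, 16.55 and 18.75 in the DKK1-SE+/+ samples and 2.79, 5.67 and 7.52 in the DKK1-SE-/- samples. It fell in 3 of 3 DKK1-SE-/- samples, by 1.47 on the log2 scale (standard error 0.25, adjusted p = 9.88e-04 by edgeR with Benjamini-Hochberg adjustment). With the GC-content offset its log2 fold change was -0.97, which is short of the fold limit. The 1 of 25 called lower is a share near the 3.60% of all fitted genes. The list median was -0.05, and without the fold limit 7 of the 25 were higher and 10 lower, beside 19.8% and 19.5% of all fitted genes.

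TRIM28, the corepressor that the KRAB box recruits, had TPM values of 1122 ± 62.7 in the DKK1-SE+/+ samples and 1113 ± 136 in the DKK1-SE-/- samples (SD, n = 3), and its fitted log2 difference was 0.12 with a standard error of 0.12. SETDB1, the methyltransferase that TRIM28 recruits, had a log2 fold change of 0.12 (0.12), and ZNF274, a zinc finger protein that brings SETDB1 to zinc finger genes, of 0.12 (0.15). None of these 3 was called. SMCHD1, a silencing protein of the SMC family whose symbol was misspelt on the list, had TPM values of 31.44, 26.27 and 28.19 in the DKK1-SE+/+ samples and 7.31, 9.95 and 17.43 in the DKK1-SE-/- samples. Its log2 fold change was -1.08 (standard error 0.22), short of the fold limit, so the count of called genes is 1 with or without it. With the GC-content offset the log2 fold change of SMCHD1 was -0.66.

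Of the 12 DNA methylation genes, all were fitted and 1 was called lower (8.33%), beside 3.60% of all fitted genes. HELLS, a helicase needed for DNA methylation of repeats, had TPM values of 24.76, 27.86 and 26.68 in the DKK1-SE+/+ samples and 7.35, 10.43 and 13.37 in the DKK1-SE-/- samples. It fell in 3 of 3 DKK1-SE-/- samples, by 1.23 on the log2 scale (standard error 0.16, adjusted p = 2.13e-04 by edgeR with Benjamini-Hochberg adjustment), close to the fold limit. Its log2 fold change was -0.84 with the GC-content offset, -1.17 without DKK1-SE+/+ replicate 2 and -1.09 without DKK1-SE-/- replicate 1, and it was not called in these fits. DNMT1, the maintenance methyltransferase, differed by -0.12 on the log2 scale (standard error 0.10). Without the fold limit, 1 gene of this list was higher and 5 were lower, beside the same 19.8% and 19.5%, and the list median was -0.24.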

How the data were processed

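RNA-seq of PANC-1 cells was analysed in 3 DKK1-SE+/+ and 3 DKK1-SE-/- samples, grouped by their labels. The authors had stranded mRNA libraries made, sequenced and analysed by Majorbio, with hg38 in the submitters' processing notes. The aligner, the counting program, its use of strand and the annotation are not given in the sources used here. The deposited expected counts are estimates per gene that are not normalized and need not be whole, and they were rounded to whole numbers. The deposited TPM values were normalized by the authors within each library. The authors' comparison columns (fold change, log2 fold change, p-value, adjusted p-value and calls) and 2 columns of group mean TPM were not used.

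Genes were filtered with edgeR 4.0.16 filterByExpr (minimum count 10), scaled with TMM and compared by the quasi-likelihood F test in R 4.3.3, with Benjamini-Hochberg adjustment over 15179 genes. The standard error was the absolute log2 fold change divided by the square root of F. The fits were tested on simulated data. Positions came from GENCODE 44. At least 1 count was not whole for 24 of the 38 members (63.2%) and for 54.2% of fitted genes (tolerance 0.01), so reads may be shared between similar zinc finger genes. Named genes were DKK1, the called members (at most 8), the 5 most abundant members, members beside a called stretch, the called and 3 most abundant neighbours, called genes of both lists, and TRIM28, SETDB1, DNMT1 and ZNF274. The members and lists were chosen with earlier results of these data known. On the list of heterochromatin genes SMCHD1 was written as SMARCHD1, which matches no gene, and the list was kept as written. SMCHD1, ZNF610, ZNF534, ZNF415, ZNF765, ZNF525, ZNF432, ZNF813 and ENSG00000291131 were named after their values were seen. Alternatives were DESeq2 1.42.0, RLE or library size scaling, no count filter, the replicate number as a block, each sample left out, log2(TPM + 1) or log2(TPM + 0.1) in limma-trend (limma 3.58.1), other call limits and a GC-content offset in 40 bins.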

Additional observations from a re-analysis of the deposited data

How the results depend on the processing

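The number of members called higher was 6 with RLE or library size scaling, DESeq2, no count filter, limma with a trend on log2(TPM + 0.1) and each sample left out, and 0 were lower there. With limma on log2(TPM + 1), whose pseudocount compresses low values, 2 members, 1 neighbour and 2 other zinc finger genes of chromosome 19 were called higher, as were 169 of all genes, with 335 lower. With log2(TPM + 0.1) the median over all genes moved from 0.03 to -0.11 and that of the members to 0.24. Without the fold limit, 14 members were higher and 2 lower, 5 neighbours and 36 other zinc finger genes of chromosome 19 were higher, 17 corepressor and heterochromatin genes and 6 DNA methylation genes were called, and 3013 of all genes were higher and 2959 lower. With no count filter, 1097 of all genes were called higher. With the GC-content offset, 0 corepressor and heterochromatin genes and 0 DNA methylation genes were called, and the median of the members moved to 0.46. The cause was not tested.

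With a sample left out, the neighbours called higher numbered 2 to 4 (4 without DKK1-SE+/+ replicate 2) and the DNA methylation genes called 0 to 1. The median log2 fold change of the members was -0.02 without DKK1-SE-/- replicate 3. With the replicate number as a replicate block, 6 members, 2 neighbours and 17 other zinc finger genes of chromosome 19 were called higher, and 708 of all genes were higher and 565 lower. Same-numbered samples deviated from their group means with correlations of -0.12, -0.07 and -0.11 over 15179 genes, so the numbers were not taken to pair the samples. With SMCHD1, an alternative chosen after seeing the data, 1 of 26 heterochromatin genes was called, and outside the interval, another such alternative, 16 other zinc finger genes of chromosome 19 were called higher. Counts near 0 in DKK1-SE+/+ cells limit the precision for ZNF649, ZNF880, ZNF528 and ZNF528-AS1, and low counts there limit it for ZNF577.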
